A study of Mus musculus with 3 samples.

Results

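The SOCS family consists of 8 genes, Socs1 to Socs7 and Cish, and all 8 were found by symbol among the 55536 annotated genes of the deposited tables. They were measured in 3 ribosomal RNA-depleted total RNA libraries made from the cytosolic fraction of bone marrow-derived macrophages of C57BL/6J mice. Bone marrow-derived macrophages are primary phagocytes grown from marrow progenitors, and these had received Lipid A at 100 ng/ml for 40 minutes. Toll-like receptor 4 recognises this lipid anchor of bacterial lipopolysaccharide. All 3 libraries belong to this 1 group, the labels name no further allele or agent, and age and sex were not collected. The labels call the libraries biological replicates but tie them to 1 donor record, so whether they came from separate animals is not known and the spread between them may be technical. Unstimulated cells and other fractions were not analysed here, so every value below is a level and none is a response to Lipid A. Fewer cells carrying a message and less of it per cell cannot be told apart in such bulk RNA.

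SOCS proteins are brakes on cytokine signalling. A cytokine receptor activates JAK kinases, which phosphorylate STAT factors, and the STATs enter the nucleus and switch on genes that include SOCS genes. Each SOCS protein binds phosphorylated tyrosines through its SH2 domain and recruits elongins and a cullin ubiquitin ligase through its SOCS box. SOCS1 and SOCS3 can in addition inhibit JAK kinases directly through a short region next to the SH2 domain. In macrophages SOCS1 is best known for restraining interferon signalling, and SOCS3 for restraining signals through gp130, the shared receptor chain of the IL-6 family.

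Sequence near the starts of Socs3 and Socs1 is shown because these close relatives lay furthest apart of the paralog pairs, and that of Cish because it varied most between libraries. RefSeq promoter windows on GRCm38.p6, 250 bases before to 50 after each start, matched 4 members (Cish, Socs3, Socs4 and Socs1). Capitals mark a STAT motif (TTCNNNGAA) in Socs3 and Cish and an interferon regulatory factor (IRF) motif (GAAA repeated after any 2 bases) in Socs1. The 250 bases before the start of Socs3 are chr11:117969367-117969616, minus strand, those of Socs1 are chr16:10785537-10785786, minus strand, and the Cish stretch is chr9:107296657-107296681, plus strand.
Socs3: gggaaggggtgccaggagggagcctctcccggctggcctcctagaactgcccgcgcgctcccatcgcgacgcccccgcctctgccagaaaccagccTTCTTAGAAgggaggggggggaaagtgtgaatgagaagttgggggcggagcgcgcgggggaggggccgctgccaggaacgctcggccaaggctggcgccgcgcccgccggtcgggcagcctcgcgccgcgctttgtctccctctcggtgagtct
Socs1: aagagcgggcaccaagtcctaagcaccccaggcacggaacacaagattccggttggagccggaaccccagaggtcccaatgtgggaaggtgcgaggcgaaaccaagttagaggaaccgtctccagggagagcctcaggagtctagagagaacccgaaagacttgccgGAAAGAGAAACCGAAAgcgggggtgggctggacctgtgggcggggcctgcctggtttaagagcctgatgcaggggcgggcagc
Cish: ttTTCCTGGAAagTTCTTGGAAatc

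Socs3 held 1 STAT motif, TTCTTAGAA, beginning 154 bases before the RefSeq start. Cish held 2 STAT motifs, TTCCTGGAA beginning at the RefSeq start itself and TTCTTGGAA 11 bases after it. Socs1 held 2 IRF motifs that share bases, GAAAGAGAAA and GAAACCGAAA, beginning 83 and 77 bases before the start. Searched on both strands, the STAT motif was present in 8.30% and the IRF motif in 3.44% of 32851 windows of the same length. The Socs4 window held neither, nor any of 4 further motifs sought in each of the 4 windows: AP-1 (TGA and TCA around any 1 base), CRE (TGACGTCA), the TATA box (spelled TATAAA) and NF-κB. The further motifs occurred in 7.81%, 1.79%, 13.62% and 8.46% of all windows and in none of the other 3 members either. These matches describe the letters of the windows and are not measured binding. In the GENCODE M21 annotation, the main transcript Socs1-201 starts at the RefSeq start, Socs3-201 starts 180 bases downstream of it and Cish-201 starts 633 bases upstream of it, so the Cish stretch lies inside the 5′ UTR of Cish-201.

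Socs3 was the most abundant member, followed by Socs6, and together they made up most of the family's RNA. Levels are given as TPM, a measure of transcript abundance that is scaled to transcript length and can therefore be compared between genes. Socs3 (ENSMUSG00000053113.3, chr11:117966079-117970047, minus strand, mm10) stood at 190, 188 and 89.8 TPM in replicates 1, 2 and 3, which is 156 ± 57.5 (SD, n = 3). Its level exceeded that of 97.27% of the 11458 protein-coding genes with a mean of at least 0.1 TPM. Replicates 1 and 2 were close together and replicate 3 was lower. Socs3 alone contributed 76.4%, 72.0% and 68.5% of the summed TPM of the 8 members, a mean of 72.3%.

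Socs6 encodes a member that binds the receptor tyrosine kinase KIT and insulin receptor signalling proteins. It stood at 41.3, 52.9 and 28.8 TPM (41.0 ± 12.1, SD, n = 3) and lay on chromosome 18. This was above 89.76% of detected protein-coding genes, and it made up 16.6%, 20.3% and 22.0% of the family's TPM. Socs3 exceeded Socs6 in 3 of 3 libraries, and the ratio of mean levels was 3.81.

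**Figure D1:**
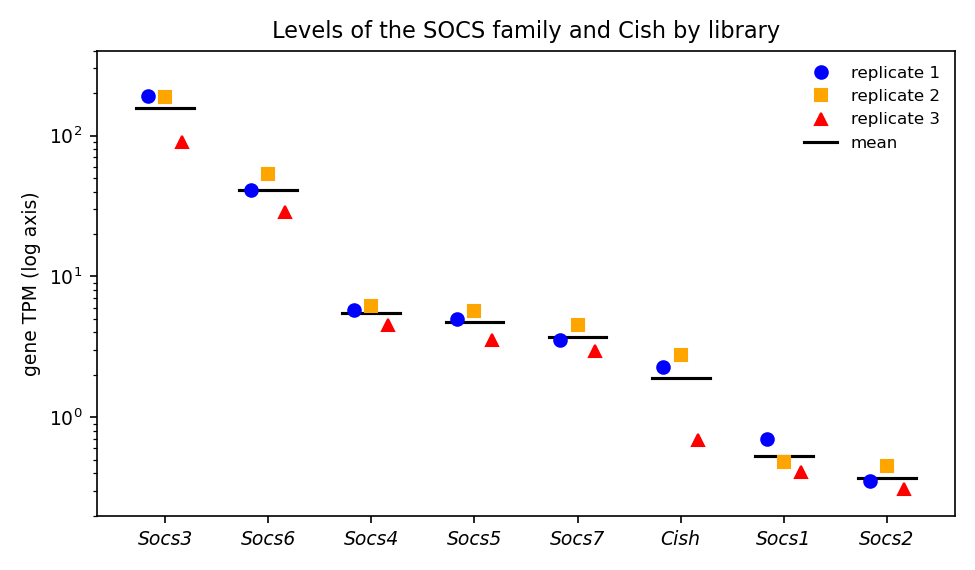
Gene TPM (log axis) of the 8 members in each of 3 libraries, ordered by mean, with symbols for replicates and a black line for the mean. Socs3 is at 89.8 to 190 TPM and Socs2 at 0.31 to 0.45, and the triangle of replicate 3 is the lowest symbol of every member.

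Socs4 and Socs5, a pair of close relatives known for acting on the epidermal growth factor receptor, came next. Socs4 (chr14:47276931-47296102, plus strand) measured 5.79, 6.18 and 4.50 TPM (5.49 ± 0.879, SD, n = 3). Socs5 (chr17:87107679-87137839, plus strand) measured 4.99, 5.69 and 3.55 TPM (4.74 ± 1.09, SD, n = 3). Their ranges overlapped across libraries, but within each library Socs4 was the higher. Socs7, which interacts with insulin signalling proteins, is on chr11:97362551-97398542, plus strand, and measured 3.56, 4.54 and 2.95 TPM (3.68 ± 0.802, SD, n = 3). These 3 genes lay at or somewhat under the level of the median detected protein-coding gene, 6.17 TPM, with 46.94%, 42.92% and 37.39% of detected genes below Socs4, Socs5 and Socs7.

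Cish, the first-described member and a brake on STAT5-activating cytokines such as GM-CSF and IL-2, was low. It is on chr9:107296026-107302784, plus strand, and measured 2.26, 2.77 and 0.69 TPM (1.91 ± 1.08, SD, n = 3). Replicates 1 and 2 were similar, and replicate 3 was far below both. Cish ranked above 25.39% of detected protein-coding genes.

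Socs1 and Socs2 were the least abundant members. Socs1 (chr16:10782240-10785536, minus strand) measured 0.70, 0.48 and 0.41 TPM (0.53 ± 0.151, SD, n = 3), from 99, 63 and 119 expected counts. Socs2, best known as a brake on growth hormone signalling (chr10:95385362-95417180, minus strand), measured 0.35, 0.45 and 0.31 TPM (0.37 ± 0.0721, SD, n = 3), from 40, 32 and 48 expected counts. Both were present in every library, and 11.26% and 8.52% of detected protein-coding genes were lower. The authors' gene table also gives a posterior mean, a second estimate of TPM with an interval of unstated level. For Socs2 it was 0.99, 1.02 and 0.62 TPM. The intervals were 0.587 to 1.42, 0.595 to 1.52 and 0.377 to 0.894 in replicates 1, 2 and 3. None of them contains the Socs2 TPM given above for the same library. For Socs1 it was 0.70, 0.48 and 0.42 TPM. By this estimate, which was added after seeing the data, Socs2 exceeded Socs1 in 3 of 3 libraries, so the order of these 2 genes depends on the estimate used.

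The order of levels, Socs3, Socs6, Socs4, Socs5, Socs7, Cish, Socs1 and Socs2, was the same in each of the 3 libraries. Neighbours were taken to differ beyond their spread where the difference of log2(TPM + 1) within libraries had 1 sign in all 3 and a mean above 2 SD. By that rule 4 of 7 neighbouring pairs differed. Socs3 exceeded Socs6 by 1.87 ± 0.29 and Socs6 exceeded Socs4 by 2.66 ± 0.24 (log2, mean ± SD, n = 3). Socs4 exceeded Socs5 by 0.19 ± 0.09 and Socs5 exceeded Socs7 by 0.29 ± 0.10. The sizes of these smaller steps depend on the scaling to length. On CPM, which scales counts to library size and not to length, Socs4 exceeded Socs5 by 1.19. The order of the other pair turned, and Socs7 exceeded Socs5 by 0.53. The remaining steps were not beyond their spread: Socs7 over Cish 0.76 ± 0.41, Cish over Socs1 0.85 ± 0.55 and Socs1 over Socs2 0.16 ± 0.16.

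The 8 genes fall into 4 pairs of closest relatives, and the members of a pair were unequal to very different degrees. Socs3 exceeded Socs1 by 6.82, 7.00 and 6.01 log2 units in replicates 1, 2 and 3 (6.61 ± 0.53), and the ratio of mean TPM was 294.5. Socs6 exceeded Socs7 by 3.21, 3.28 and 2.92 (3.14 ± 0.20). Both differences were many times their spread. Socs4 exceeded Socs5 by 0.18, 0.10 and 0.27, which was small but of 1 sign. Cish exceeded Socs2 by 1.27, 1.38 and 0.37 (1.01 ± 0.56), which was within 2 SD.

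Each member was also set against Socs3 in a limma fit of within-library log2(TPM + 1) differences across all 13702 genes with a mean of at least 0.1 TPM. All 7 other members were lower at a Benjamini-Hochberg adjusted p under 0.05. In the same fit 96.2% of all genes were lower than Socs3 and 1.79% were higher, so the count of members sets them no further apart than the background. The closest was Socs6, at -1.87 (SE 0.27, adjusted p = 3.59e-12 by limma). Over the alternatives run its limma adjusted p was at most 0.000492, the value without replicate 2. Every gene in the fit is compared with the same Socs3 values, so the p-values share their error and are too small. An exact sign test over 3 libraries cannot go below 0.25.

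The 3 protein-coding genes with the most similar levels to Socs3 over the 3 libraries, out of 11457, were Cxcl1, Ms4a6c and Arhgdib. Likeness was the root mean square difference of log2(TPM + 1), 0.0917, 0.104 and 0.115 respectively. Cxcl1, a neutrophil-attracting chemokine, measured 186, 209 and 91.1 TPM. The genes nearest to Socs1 were Kif19a (0.0128), Erbb3 (0.0136) and Spef2 (0.0214), each near 0.5 TPM with means of 0.517, 0.537 and 0.517. At such low levels many genes are alike by this measure.

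Replicate 3 was the lowest library for every member on the TPM scale. Protein-coding genes outside the mitochondrial genome also held their smallest share there. They took 32.8%, 36.2% and 23.5% of all TPM in replicates 1, 2 and 3. With TPM rescaled to the same sum over these genes in each library, Socs4 measured 17.7, 17.1 and 19.1, highest in replicate 3. Socs5 measured 15.2, 15.7 and 15.1 and Socs6 126, 146 and 123, lowest in replicate 3 by a small margin. Socs3 measured 581, 520 and 382 and Cish 6.90, 7.66 and 2.93 on that scale. These were also lowest in replicate 3, with wider gaps. Socs7, Socs1 and Socs2 were not lowest there.

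The same appeared in log2 CPM after TMM normalization, which adjusts for library makeup. Socs3 was at 9.32, 9.20 and 8.68, so that replicate 3 lay 0.58 below the mean of the others (replicate 3 minus that mean, -0.58). Cish was at 2.88, 3.31 and 2.05, a difference of -1.04 by the same measure. Socs4 (5.80, 5.79 and 5.88), Socs5 (4.59, 4.65 and 4.56) and Socs7 (5.09, 5.19 and 5.16) were nearly level, with SDs between 0.048 and 0.049. Socs6 had an SD of 0.139, Socs2 of 0.179, Socs1 of 0.327, Socs3 of 0.341 and Cish of 0.639. The 4 members with the largest SDs include Socs1 and Socs2, which rest on 32 to 119 counts a library, and 3 libraries give each SD little precision.

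In edgeR's goodness-of-fit test, which asks whether a gene varies between libraries beyond genes of like abundance, 0 of 8 members passed an adjusted p under 0.05. The background was 1.71% of 12250 genes, 209 in all. At an unadjusted p under 0.05 there was 1 member, Cish (edgeR adjusted p = 0.325). Among protein-coding genes alone the edgeR adjusted p of Cish was 0.0879, and over the alternatives it ranged up to 0.999. That highest value was for replicates 1 and 2 alone, where the SD of Cish was 0.303 and that of Socs3 0.0848. The RNAs Malat1 (10.62, 9.89 and 12.81 log2 CPM), Neat1 (8.04, 6.87 and 9.51) and Rn7sk (12.91, 12.57 and 14.11), which reside in the nucleus, were each highest in replicate 3. Their part in the lower values of Socs3 and Cish there was not tested.

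**Figure D2:**
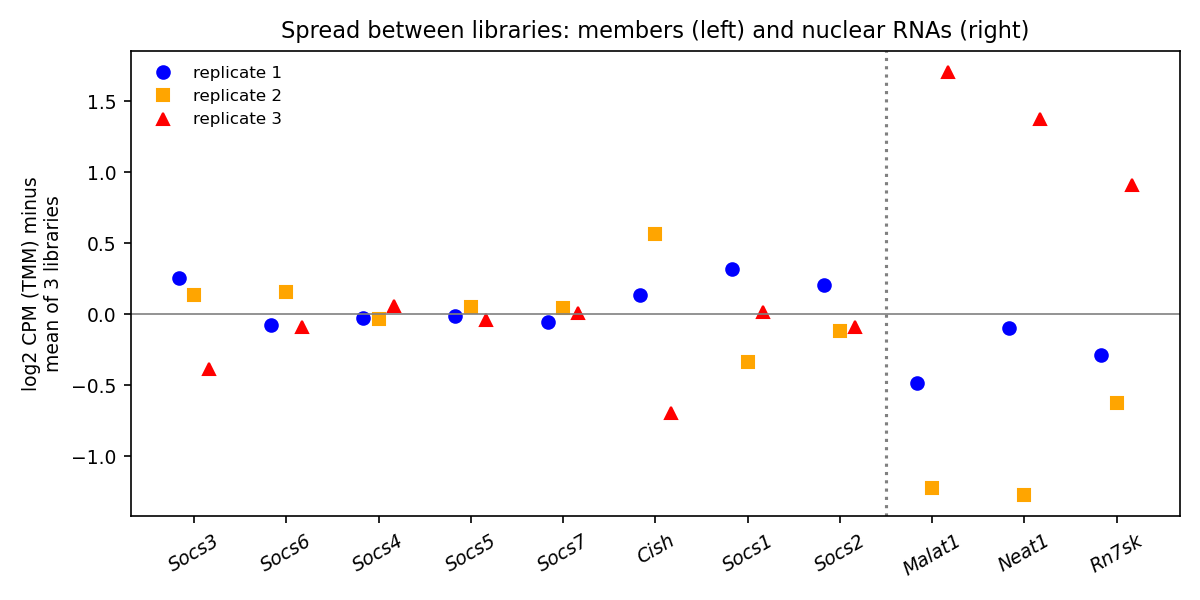
Log2 CPM after TMM normalization minus the gene's mean over the 3 libraries, for the 8 members (left of the dotted line) and 3 nuclear RNAs (right). Replicate 3 (triangles) lies lowest for Socs3 and Cish and, by small margins, for Socs5 and Socs6. It lies highest for Malat1, Neat1 and Rn7sk and, by a small margin, for Socs4. Socs4, Socs5 and Socs7 have SDs of at most 0.049.

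The annotation holds 40 transcripts for the 8 genes, and the authors deposited 2 transcript tables made in different ways. By mean share over the libraries, both tables had the same leading transcript for 8 of 8 members. Within single libraries the exception was Socs2 in replicate 3, where Socs2-201 and Socs2-208 held 35.5% each in the first table and Socs2-213 led in the second (35.9% against 33.3% for Socs2-201). Socs3 was practically 1 transcript, Socs3-201, with 99.96% of its TPM, and Socs4 likewise with 100% in Socs4-201. Socs7-201 held 91.9 ± 5.5% of Socs7 and Socs5-201 held 69.2 ± 1.3% of Socs5 in the first table (SD, n = 3). In the second they held 88.3 ± 2.2% and 63.8 ± 2.5%. Most of the rest of Socs5 (27.1% in the first table, 32.3% in the second) was Socs5-203, whose annotated coding sequence is incomplete. In the first table Socs1-201 held 92.9%, 100% and 70.7% of Socs1. The only other transcript, Socs1-202, encodes the same 212 codons. In the same table Socs2-201 held 75.0%, 55.6% and 35.5% of Socs2 TPM, which rests on few counts.

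Most of the abundant Socs6 message was assigned to 3 complete coding transcripts of 533 codons that differ in their UTRs. They held 91.8%, 88.9% and 95.5% of Socs6 TPM in the first table and 74.1%, 80.2% and 85.2% in the second. There the incomplete Socs6-208 held 19.3% in replicate 1 and the incomplete Socs6-205 14.0% in replicate 2. In the first table Socs6-203, with a 3′ UTR of 693 bases, held 42.7 ± 2.9% of Socs6 TPM, and Socs6-201, with a 3′ UTR of 4019 bases, held 39.5 ± 1.6% (SD, n = 3). Socs6-202, with a 3′ UTR of 1014 bases, held 9.95%. The long 3′ UTR form thus made up 42.3%, 43.1% and 43.2% of the 3 complete coding forms in replicates 1, 2 and 3. In the second table it made up 32.5%, 37.4% and 32.5%. The second table therefore placed less of Socs6 in the long form in each library.

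The makeup of Cish differed between libraries and between tables. Its leading transcript Cish-201, which encodes 257 codons, held 50.2%, 54.3% and 63.8% of its TPM in the first table, highest in replicate 3. In the second it held 82.8%, 88.1% and 69.6% (mean 80.2%), lowest in replicate 3. The tables did not divide the rest alike. Cish-204, with a coding sequence of 62 codons, held 31.1%, 41.7% and 14.5% in the first table. In the second Cish-204 held 10.3%, 0% and 0%, a mean of 3.42%. A transcript with no annotated coding sequence, Cish-202, contains 89.1% of the intron bases of Cish-201, although neither intron is contained whole. It had 15, 25 and 76 of 278, 379 and 232 counts in replicates 1, 2 and 3. These are shares of 5.40% (95% Wilson interval 3.30 to 8.71), 6.60% (4.51 to 9.56) and 32.76% (27.04 to 39.04). The interval of replicate 3 lies above the intervals of the others. The second table gave 7.82%, 7.36% and 38.28%. The counts outside Cish-202 were 263, 354 and 156. Replicate 3 therefore had both the lowest Cish level and the largest share assigned to the intron-containing transcript, beside the highest Malat1, Neat1 and Rn7sk, whose part in this was not tested. Annotated retained-intron transcripts took 3.04%, 3.94% and 3.19% of the TPM of detected protein-coding genes and were not highest in replicate 3. That class does not include Cish-202, which is annotated as a processed transcript. Transcript counts are estimates and the intervals cover counting error only.

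**Figure D3:**
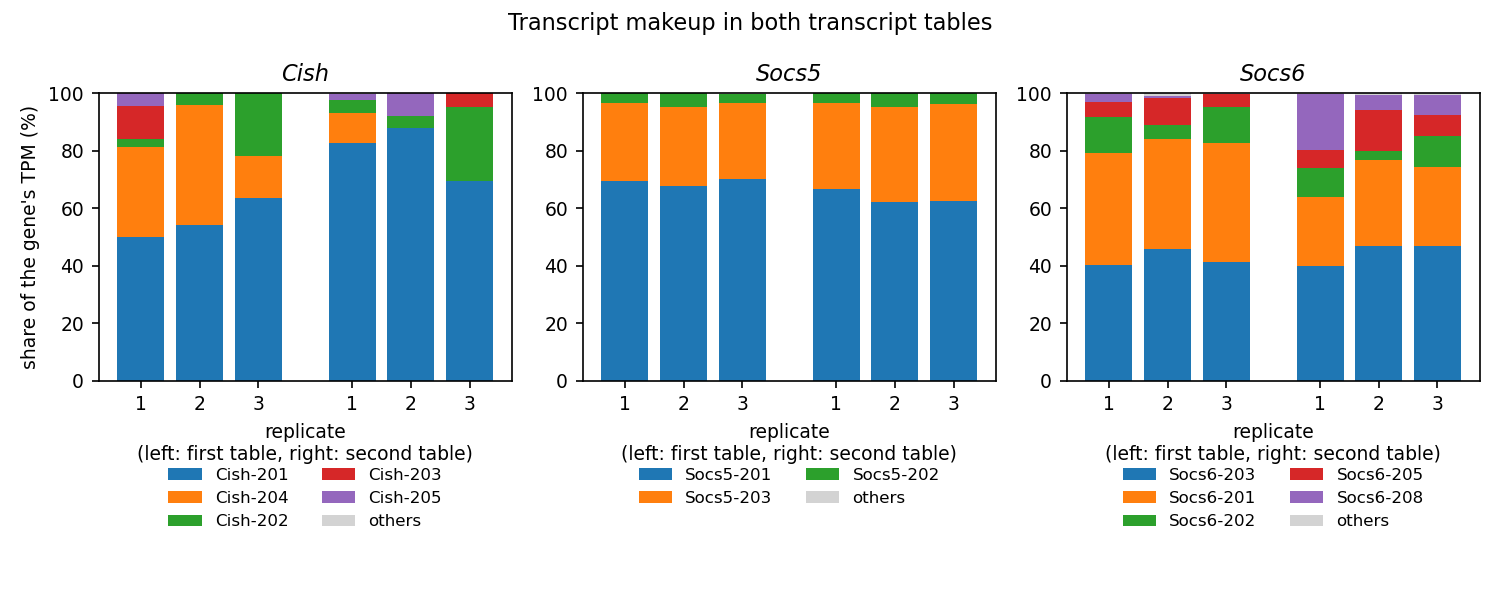
Share of each gene's TPM (%) in its transcripts, for Cish, Socs5 and Socs6, with 3 bars of replicates from the first transcript table on the left of each panel and 3 from the second on the right. Cish-202 takes 21.7% of Cish in replicate 3 of the first table against 2.67% and 3.96% in the others. The makeup of Socs5 is close to constant between libraries within each table, with Socs5-201 at a mean of 69.2% in the first and 63.8% in the second.

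Sequence elements of the 3′ UTRs were compared because AU-rich elements are known to shorten the life of many cytokine messages. Cish-201 was the only leading member transcript with the nonamer TTATTTATT, which it held 2 times in overlap, at bases 487 and 491 of its 1087-base 3′ UTR. The nonamer is in capitals below, with GENCODE M21 transcript sequence around it.
Cish-201 site 1: tatacagtatTTATTTATTtattctcctt
Cish-201 site 2: cagtatttatTTATTTATTctccttgcag

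The nonamer was present in 7.0% of the 3′ UTRs of 11162 leading coding transcripts of detected genes. Of the shorter ATTTA pentamer, Cish-201 held 3, Socs3-201 4 in 1474 bases, Socs4-201 17 in 5182 bases and Socs1-201 0 in 1990 bases. Per kilobase this is 2.76 for Cish-201, 2.71 for Socs3-201 and 3.28 for Socs4-201, against a median of 1.23 over all such transcripts. The range over the other leading members with pentamers was 0.965 (Socs7-201) to 1.72 (Socs2-201). Socs6 enters there by Socs6-203, with 1 pentamer in 693 bases, while its long form Socs6-201 held 10 in 4019 bases. These are counts of letters, and message stability was not measured.

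Messages for elongins, cullins and enzymes that act with them were present in all 3 libraries. Of 10 genes for elongins, cullins and the enzymes that activate them, 10 had a mean of at least 1 TPM, where 43.1% of all protein-coding genes did, and the median was 30.5 TPM. Nedd8, the ubiquitin-like protein that activates cullins, measured 106, 161 and 82.6 TPM, and Elob, which encodes elongin B, 94.1, 112 and 68.1 TPM. Of the SOCS genes themselves 6 of 8 reached 1 TPM, with a median of 4.21. Of 27 genes for proteins of other families that carry a SOCS box 13 did, with a median of 0.417 TPM. Wsb2 (54.7 ± 17.0 TPM) and Wsb1 (33.9 ± 4.28 TPM) were the most abundant of these and stood near Socs6. At the other end 4 of the 27, among them Asb9, had 0 counts in all 3 libraries, which allows up to 0.0792, 0.0808 and 0.0509 CPM with 3 counts taken as the limit.

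Genes of the pathway on which SOCS proteins act were also mostly expressed. All 4 JAK kinases reached 1 TPM, led by Jak1 (40.5 ± 6.45 TPM) and Tyk2 (11.4 ± 2.27 TPM). Of 7 STAT genes 6 did, among them Stat6, the IL-4-activated STAT (40.9 ± 9.58 TPM). Of 25 receptor genes 19 did, with Il10rb (116 ± 19.0 TPM), a chain of the IL-10 receptor, and Csf2rb2 (65.3 ± 13.9 TPM), a chain of the IL-3 receptor, at the top and Prlr, the prolactin receptor, listed at 0 TPM. Il6st, which encodes gp130 and is named here as the receptor chain that SOCS3 binds, measured 31.6, 30.1 and 24.9 TPM, below Socs3 in each library. Ifngr1 and Ifnar1, receptor chains for the interferons that SOCS1 restrains, measured 49.7 ± 13.4 and 22.5 ± 2.95 TPM, above Socs1 in each library. These 3 receptors were named for their roles after their values were seen.

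Ligands were unevenly expressed. Of 16 JAK-STAT ligands 6 reached 1 TPM, near the 43.1% of all protein-coding genes that did, and the median was 0.492. Il10, an anti-inflammatory cytokine that signals through STAT3, measured 124, 138 and 49.4 TPM, and Osm, oncostatin M of the IL-6 family, measured 44.2, 42.6 and 41.0 TPM. In log2 CPM after TMM normalization Il10 was at 7.60, 7.64 and 6.72, lowest in replicate 3, and Osm at 6.97, 6.82 and 7.32, highest there. Ifng and Epo had 0 counts in all 3 libraries. Of the 9 ligands tested for spread between libraries 1 was called, Il12b, named here after its values were seen (2.97, 2.51 and 0.73 log2 CPM, edgeR adjusted p = 0.00281). The share called over all genes tested was 1.71%, and no gene of the other lists or of the cell type markers was called. Il12b too was lowest in replicate 3.

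Other brakes on the pathway, phosphatases, PIAS proteins and ubiquitin ligases among them, were all above 1 TPM (12 of 12, median 11.9 TPM), led by the phosphatase genes Ptprc (65.4 ± 15.0 TPM) and Ptpn6 (48.1 ± 8.93 TPM). Socs3 was above each of the 12. Of 10 adaptors and substrates that SOCS proteins bind 9 reached 1 TPM, with Grb2 (163 ± 75.1 TPM) and Rela (34.7 ± 12.8 TPM) highest and Irs1, the insulin receptor substrate, at 0.00333 TPM. Of 10 messages known as STAT targets in other settings all reached 1 TPM and the median was 126. Junb (502 ± 121 TPM) and Cdkn1a (306 ± 134 TPM) were the highest. In the limma fit against Socs3, 4 of these 10 were higher and 5 lower at an adjusted p under 0.05, against the background of 1.79% and 96.2% given above.

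**Figure D4:**
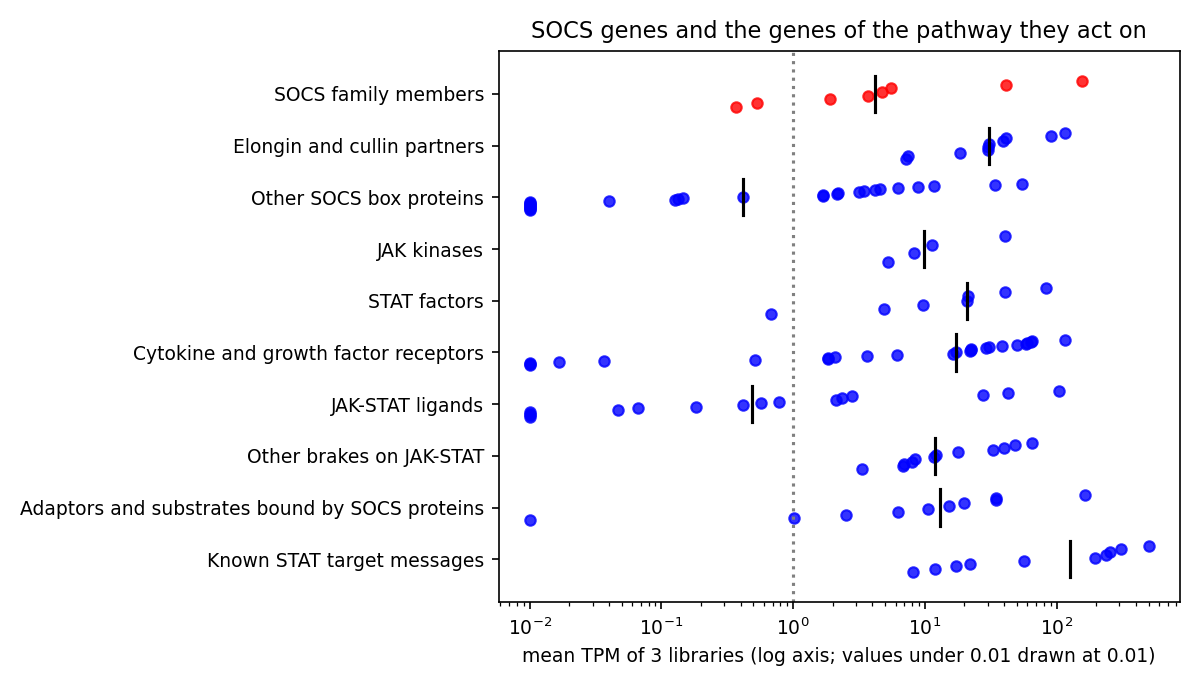
Mean TPM over 3 libraries (log axis) of the 8 SOCS family genes (red) and the genes of 9 further lists (blue), 1 point a gene, with a black line for each list's median and a dotted line at 1 TPM. The SOCS genes span 0.37 to 156 TPM, the elongin and cullin partners all lie above 1 TPM, and ligands and other SOCS box proteins reach down to 0.

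Of the markers of the labelled cell type, 10 of 10 macrophage markers reached 1 TPM, with a summed level of 7780 to 13530 TPM. Of all protein-coding genes 43.1% reached 1 TPM. Of 7 neutrophil markers 3 did, with sums of 34.3 to 44.8 TPM and Ly6g at 0, and of 8 lymphocyte markers 1 did, Cd4 at 23.7 ± 4.99 TPM, with Cd8a at 0.00333. None of 6 dendritic cell, 4 mast cell, 4 stromal and 5 erythroid markers reached 1 TPM. The part of other cells in the SOCS levels was not tested. The annotation overlaps 2 genes with Cish (Gm17040 and Gm17041) and 3 with Socs6 (AC118614.1, AC122398.2 and AC122398.3). Of these only Gm17040 had a count in any library, and it had 1.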

How the data were processed

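A gene table and 2 transcript tables per library use mm10 and GENCODE M21, per the deposited notes. The expected counts and TPM of the gene table and first transcript table were derived by the authors from a transcriptome alignment, and the estimated counts and TPM of the second table directly from reads, per the deposited notes. Not given in the sources used here: tools, strandedness. Expected counts summed to 37861150, 37136495 and 58889061 per library. Spike-ins (97) and numeric IDs (26248, all at 0 counts) were left out. Library pairs differed by more than sampling noise (chi-square per degree of freedom 58.5 to 145).

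Levels were TPM as deposited, and TPM carries no depth. Tests used R 4.3.3. edgeR 4.0.16 was run on expected counts rounded to whole numbers (filterByExpr, TMM, intercept only, trended dispersion, goodness of fit). limma 3.58.1 was run on within-library differences from Socs3 of log2(TPM + 1), with a minimum mean of 0.1 TPM and trend. Benjamini-Hochberg adjustment covered all genes in each fit, with a threshold of 0.05. Adding 1 understates folds of low genes. Size factors from DESeq2 1.42.0 were 1 alternative, and the scripts were tested on simulated data. The members and gene lists were chosen with earlier results of these data known. Named genes are all members, the 2 most abundant of each list and its lowest where under 0.1 TPM, the 3 most like Socs3 and Socs1, and genes overlapping a member. The 9 further lists were written by hand. The values of 1 gene that this rule names are not reported here.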

Additional observations from a re-analysis of the deposited data

How the results depend on the processing

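No paired analysis was possible because all 3 libraries belong to 1 group. Of the steps between neighbouring members, Socs5 minus Socs7 turned from 0.29 to -0.53 on CPM, and Socs1 minus Socs2 from 0.16 to -0.29 with the posterior mean. The paralog differences, and those from Socs3, kept their sign under each alternative run. The share of family TPM held by Socs3, the lower level of the tested members against Socs3 and the count of 0 members past the spread test kept their side under each alternative run, and the leading transcript by mean share was the same in the second table for 8 of 8 members. A filter of 1 TPM left 5 other members in the fit, since Socs1 and Socs2 dropped out. Levels themselves moved with the scale: Socs3 was 494 TPM after rescaling to protein-coding genes outside the mitochondrial genome and 65.7 in the second transcript table. The count of genes that varied beyond the trend was 209, 115 among protein-coding genes alone, and 59 to 129 with 1 library left out, lowest without replicate 3, 114 without replicate 1 and 129 without replicate 2; fewer samples or fewer genes were tested in each. On the log2 scale, Socs3 minus Socs1 was 7.90 with a pseudocount of 0.1, 7.44 on CPM and 5.59 in the second table. Cish minus Socs2, 1.01 as reported, was 1.91 with that pseudocount, 2.02 on CPM, 0.558 in the second table and 0.732 with the posterior mean. Socs4 minus Socs5 was 1.19 on CPM and 0.0991 in the second table, and Socs6 minus Socs7 3.42 with that pseudocount and 2.68 on CPM. A smaller pseudocount and CPM change the differences of low genes and of genes of unlike length by construction. Paralog pairs beyond their spread numbered 3, and 4 with a pseudocount of 0.1 or on CPM, and 2 to 4 with 1 library left out. The posterior mean and leaving out a library for transcript shares were alternatives chosen after seeing the data. Socs1, Socs2 and Cish rest on at most 379 expected counts a library, or 435 estimated counts in the second transcript table. This limits the precision of their levels and transcript shares.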
